A study of Mus musculus with 2 samples.

Results

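The MYC, MAX and MXD network is a family of transcription factors that pair with each other through a basic helix-loop-helix leucine zipper and meet on the same DNA element, the E-box. MYC binds this element only as a dimer with MAX and is known for driving ribosome production, biosynthetic metabolism and cell division in many carcinomas, those of the mammary gland included. MXD1, MXI1, MXD3, MXD4 and MNT take MAX into dimers that recruit SIN3 and histone deacetylases to the same sites, and MGA brings MAX into a Polycomb complex. MLX is a second hub, which pairs with MLXIP (MondoA), a factor that responds to glucose phosphates, and also with some MXD proteins and MNT. The 10 genes described here (Myc, Max, Mxd1, Mxd3, Mxd4, Mxi1, Mnt, Mlx, Mlxip and Mga) were taken by symbol from the 51912 rows with Ensembl identifiers, and each matched 1 row. Messenger RNA was sequenced from the mouse mammary carcinoma line 4T1. The control (1 library) is labelled control 4T1 and is called "alone" below. The cells of the co-culture (1 library, "with macrophages" below) had spent 3 days in the lower chamber of a transwell. The upper chamber held M2 macrophages, the alternatively activated form. The sources used here do not give how the control was cultured or how the macrophages were obtained and polarised. The co-culture library's title reads M2_4T2 while its treatment label and its column name 4T1, and the treatment label was followed.

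Values are TPM, a measure of transcript abundance per length, so genes can be compared within a library. With 1 library per group there is no replicate error, no test was made, and every difference below is between these 2 libraries. The log2 ratio is log2((co-culture TPM + 1)/(control TPM + 1)), and a gene counted as detected at a mean TPM of at least 1, which 11258 genes reached. Their median log2 ratio was 0.17. Scaling the co-culture library by the median ratio of abundant genes removed 0.12 on the log2 scale, and scaling by a TMM factor removed 0.22. With these scalings the 2-fold calls over all detected genes went from 557 higher and 241 lower to 406 and 293, and to 321 and 379. TPM keeps no depth, so the sequencing depth is unknown here and no counting interval can be given. Krt8 and Krt18, keratins of simple epithelium, were abundant in both libraries (548 and 439 TPM alone, 630 and 484 TPM with macrophages). The epithelial markers Epcam and Esrp1 were listed at 0 in both libraries, and Cdh1 had 0.04 TPM alone and 0.01 TPM with macrophages. Krt7 had 15.9 TPM alone and 18.3 TPM with macrophages, Cldn3 8.14 TPM and 14.1 TPM, and Krt19 0.18 TPM and 2.64 TPM. Of these 8 epithelial markers 5 were detected, all higher in co-culture. Of 14 macrophage markers only Cd68 and Cd14 were detected, and Adgre1, Itgam, Tyrobp, Fcer1g, C1qa and Arg1 were listed at 0 in both. The markers summed to 66.7 TPM alone and 40.7 TPM with macrophages, with Cd68 at 57.7 TPM and 27.8 TPM.

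The E-box that MYC, the MXD proteins, MNT and MGA share with MAX as their partner has the canonical letters CACGTG, which read the same on both strands. RefSeq promoter windows of GRCm38.p6, from 250 bases before to 50 bases after a gene's start, were found for 9 of the 10 genes, with none for Myc. The motif lay in the windows of 4 of these 9, namely Mxd4, Mnt, Mlx and Max. It was in 7.15% of all 32851 windows, in 8.09% of the 27025 genes with a window and in 12.2% of the 8443 detected genes with a window. These 4 stretches are shown because they are the places where the network's own binding letters stand before, or at the start of, its own genes. Each is 60 bases long, 5′ to 3′ on the gene's strand, with the E-box in capitals.
Mxd4 (chr5:34187897-34187956, minus strand): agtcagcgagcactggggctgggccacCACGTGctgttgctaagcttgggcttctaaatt
Mnt (chr11:74830774-74830833, plus strand): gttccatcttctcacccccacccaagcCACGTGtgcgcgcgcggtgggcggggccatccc
Mlx (chr11:101087223-101087282, plus strand): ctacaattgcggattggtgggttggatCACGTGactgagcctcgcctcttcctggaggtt
Max (chr12:76962246-76962305, minus strand): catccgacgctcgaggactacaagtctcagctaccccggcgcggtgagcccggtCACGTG
Counted from the RefSeq start, the motif began at -219 in Mxd4, -123 in Mnt, -40 in Mlx and -3 in Max. The log2 ratios of these 4 genes were -0.79, -0.31, 0.14 and -0.12, so the gene nearest to the all-gene median was Mlx and the lowest was Mxd4. The windows of Mxd1, Mxd3, Mxi1, Mlxip and Mga did not hold these letters. Of these genes Mxd3 and Mxi1 were higher in co-culture, with log2 ratios of 1.30 and 0.71. Mga, Mlxip and Mxd1 were lower, at -0.69, -0.19 and -0.07. The median was -0.22 for members with the motif and -0.07 for those without it. A match is a description of letters, not of binding.

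Myc itself was lower in co-culture. Myc (ENSMUSG00000022346) lies on the plus strand of chromosome 15 from 61985391 to 61990374 of GRCm38 and had 189 TPM alone and 103 TPM with macrophages. The control value was 1.84 times the co-culture value, a log2 ratio of -0.87. That ratio stayed short of the 2-fold line and passed the 1.5-fold line. Among detected genes 2.79% had a ratio as low. In the control 5.59% of detected genes had a higher TPM than Myc, and in co-culture 10.1% did. Myc thus stayed the most abundant member in both libraries. Its paralogs Mycn and Mycl, which other tissues use in its place, were not detected. Mycn was listed at 0 in both libraries and Mycl had 0.12 TPM and 0.21 TPM.

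Max, the obligate partner, differed little. It (ENSMUSG00000059436, chromosome 12, minus strand, 76937269 to 76962201) had 49.3 TPM alone and 45.3 TPM with macrophages, a log2 ratio of -0.12. In both libraries Max was the second most abundant member. Myc mRNA therefore stood at 3.83 times Max mRNA in the control and at 2.27 times in co-culture. Such a ratio within a library does not depend on how the libraries were scaled. It speaks of messenger RNA, and the proteins were not measured.

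The genes of the MAX-bound repressors were split in direction. Mxd3 and Mxi1 were higher in co-culture, Mxd4 and Mga were lower, and Mnt and Mxd1 differed less. Mxd3 (ENSMUSG00000021485), a repressor gene known for its expression in dividing progenitor cells, lies on chromosome 13, minus strand, from 55325168 to 55329823. It had 11.5 TPM alone and 29.8 TPM with macrophages. This was a 2.60-fold difference in TPM and a log2 ratio of 1.30, and 2.07% of detected genes had a ratio as high. Mxd3 was the seventh most abundant member alone and the fourth with macrophages. Its span overlaps that of Prelid1 on the opposite strand, with 105 of the 2369 exonic bases of Mxd3 in common. Prelid1 had 604 TPM alone and 703 TPM with macrophages, a log2 ratio of 0.22 beside the 1.30 of Mxd3. The sources used here do not say whether the libraries keep strand, so how far reads of the far more abundant Prelid1 enter the Mxd3 value cannot be told from the table.

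Mxi1 (ENSMUSG00000025025, chromosome 19, plus strand, 53310518 to 53375810), also called MXD2, had 12.1 TPM alone and 20.5 TPM with macrophages, a log2 ratio of 0.71. Of all detected genes 12.6% had a ratio as high, so this value was common in these libraries. Gm10197, annotated on the minus strand of chromosome 19 from 53371566 to 53371766, lies inside the Mxi1 span and shares 194 of its 201 exonic bases with Mxi1 exons. Gm10197 was listed at 0 alone, and with macrophages it had 12.6 TPM. Without strand, reads of these genes cannot be told apart.

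Mxd4 and Mga were lower. Mxd4 (ENSMUSG00000037235, chromosome 5, minus strand, 34173883 to 34187720), a repressor gene associated with differentiated cells, had 9.08 TPM alone and 4.84 TPM with macrophages, a log2 ratio of -0.79. All 514 exonic bases of the antisense gene Gm42846 fall in Mxd4 exons, and Gm42846 had 0.37 TPM and 0.64 TPM. Mga (ENSMUSG00000033943, chromosome 2, plus strand, 119897228 to 119969581) encodes a very large protein with a T-box besides its basic helix-loop-helix domain. It had 19.9 TPM alone and 12.0 TPM with macrophages, a log2 ratio of -0.69. Among detected genes 3.65% had a ratio as low as Mxd4 and 4.65% one as low as Mga.

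Mnt and Mxd1 completed the repressors. Mnt (ENSMUSG00000000282, chromosome 11, plus strand, 74830920 to 74845725), the broadly expressed antagonist of MYC, had 11.5 TPM alone and 9.10 TPM with macrophages, a log2 ratio of -0.31. Mxd1 (ENSMUSG00000001156, chromosome 6, minus strand, 86647042 to 86669161), the founding MAD gene, which is known to be induced as cells leave the cycle, was the scarcest member, with 1.87 TPM and 1.74 TPM. The pseudocount shrinks the ratio of so low a gene, and its log2 ratio was -0.07.

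The MLX branch was close to even. Mlx (ENSMUSG00000017801, chromosome 11, plus strand, 101087277 to 101092207) had 33.8 TPM alone and 37.4 TPM with macrophages, a log2 ratio of 0.14 that became -0.068 with the TMM factor. Mlx shares 385 exonic bases with Psmc3ip on the opposite strand, which had 25.9 TPM and 20.7 TPM. Mlxip (ENSMUSG00000038342, chromosome 5, plus strand, 123394798 to 123457932), the gene of MondoA, had 10.4 TPM alone and 8.97 TPM with macrophages, a log2 ratio of -0.19. Mlxipl, the gene of the paralog ChREBP that works in liver and fat, was listed at 0 in both libraries.

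**Figure D1:**
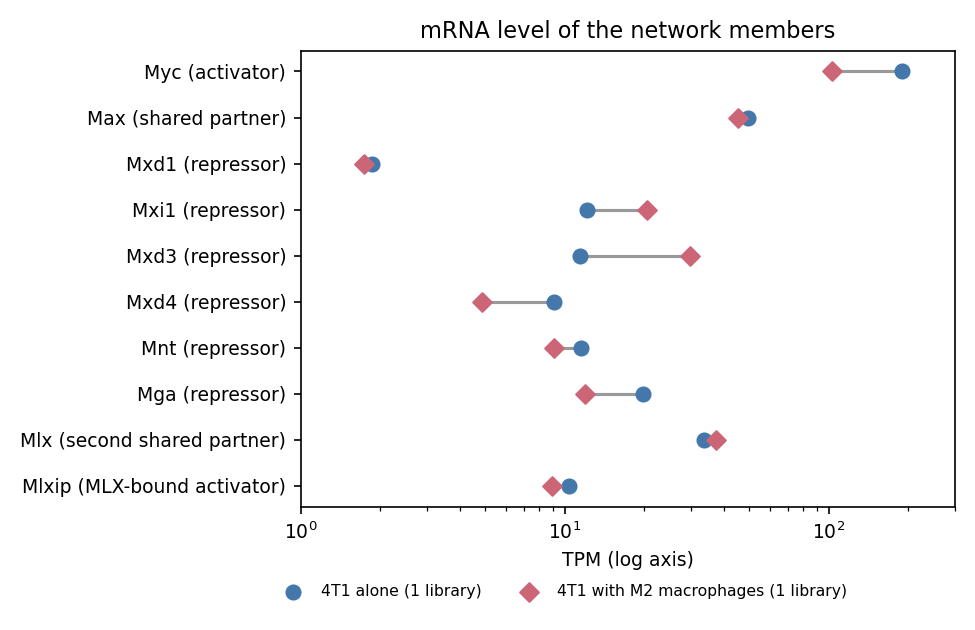
TPM of the 10 network genes on a log axis, labelled by role. A circle marks the control 4T1 cells and a diamond 4T1 cells with M2 macrophages (1 library each). Myc moves left from 189 to 103 TPM, Mxd3 and Mxi1 move right, Mxd4 and Mga move left, and Max and Mlx barely move.

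Of the 10 members, all detected, 1 was at least 2-fold higher in co-culture (Mxd3), beside 4.95% of all detected genes, and 0 were 2-fold lower, beside 2.14%. At 1.5-fold, 2 members were higher (Mxd3 and Mxi1), beside 18.6% of detected genes, and 3 were lower (Myc, Mxd4 and Mga), beside 6.37%. In all, 3 members were above 0 on the log2 scale and 7 below, where 64.5% of detected genes were above and 35.4% below. The member median was -0.16 and the median of all detected genes was 0.17. Among 10 members 1 gene is the smallest count above 0, so the 2-fold counts are near the background. With the TMM factor Myc passed the 2-fold line, at -1.09.

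**Figure D2:**
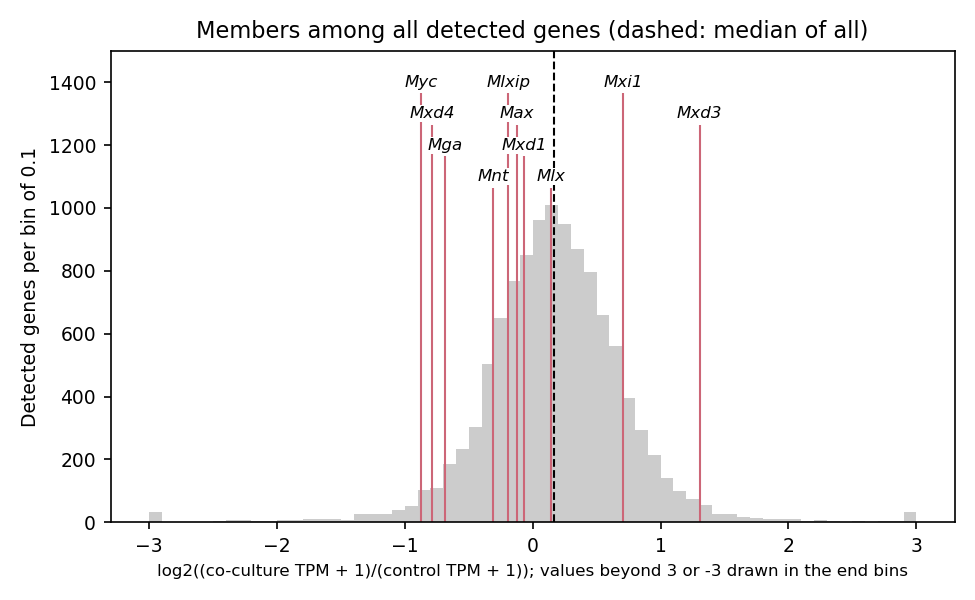
Histogram of the log2 ratio over 11258 detected genes in bins of 0.1 (y axis, genes per bin), with a line for each member and a dashed line at the median of all genes, 0.17. Myc, Mxd4 and Mga stand in the left shoulder, Mxd3 in the right one at 1.30, and the other members nearer the centre.

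The makeup of the network's mRNA differed between the libraries. The 10 genes summed to 348 TPM alone and 272 TPM with macrophages. Myc made up 54.2% of the control sum and 37.7% of the co-culture sum. The share of Mxd3 was 3.29% in the control and 10.9% in co-culture, and that of Mxi1 was 3.48% and 7.51%. The 6 repressor genes together had 65.9 TPM alone and 77.9 TPM with macrophages. Myc mRNA was thus 2.86 times the repressor sum in the control and 1.32 times in co-culture, a 2.17-fold difference between the libraries. This rests in large part on Mxd3 and Mxi1, whose values may hold reads of opposite-strand genes. Mxd3 and Mxi1 were also the only repressor genes higher in co-culture, so leaving them out could only lower the difference. Without these 2 genes the repressor sum was 42.3 TPM alone and 27.6 TPM with macrophages, Myc stood at 4.46 and 3.72 times that sum, and the difference was 1.2-fold. Against Mxd3 alone, Myc stood at 16.5 times in the control and 3.45 times in co-culture.

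Within the repressors, the sum of Mxd1, Mxd3, Mxd4 and Mxi1 was 0.70 times Max in the control and 1.26 times in co-culture. The sum of Mnt and Mga was 0.64 times Max and 0.47 times Max. The first of these sums was larger relative to Max in co-culture through Mxd3 and Mxi1 alone, with the same doubt about their reads, since Mxd1 and Mxd4 together were 0.22 times Max in the control and 0.15 times in co-culture. The Mlxip to Mlx ratio was 0.31 in the control and 0.24 in co-culture.

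**Figure D3:**
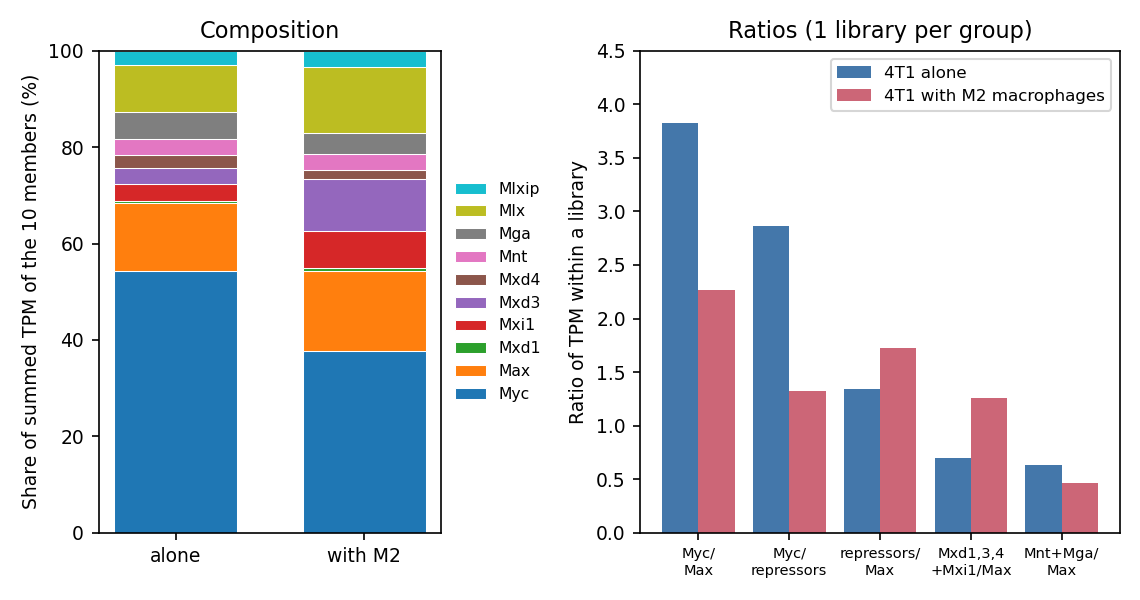
Left, share of each gene in the summed TPM of the 10 members for each library, stacked to 100%. Right, ratios of TPM within a library for cells alone and with M2 macrophages, on an axis from 0. Myc to repressors goes from 2.86 to 1.32, or from 4.46 to 3.72 without Mxd3 and Mxi1 (not drawn), and the MXD and Mxi1 sum to Max goes from 0.70 to 1.26.

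The gene lists read below were chosen with earlier results of these data known. Known MYC-activated genes of ribosome production were mostly lower in co-culture. All 28 were detected, 23 (82.1%) had lower values beside 35.4% of all detected genes, 5 had higher values, and the median log2 ratio was -0.28 against 0.17 for all detected genes. With the median ratio scaling 1 gene was higher, and the list median was -0.40 beside 0.06 for all detected genes. With the TMM factor 1 gene was higher, and the list median was -0.50 beside -0.033 for all detected genes. Without scaling, none was 2-fold different in either direction, and 8 of 28 (28.6%) were 1.5-fold lower beside 6.37% of all detected genes. The largest differences were those of Nop56, a core protein of box C/D small nucleolar RNPs, with 355 TPM alone and 191 TPM with macrophages, and of Bysl, a small-subunit assembly factor, with 27.4 TPM and 15.4 TPM. Rrp9, a U3 small nucleolar RNP protein, had 124 TPM and 72.4 TPM, and Nip7, a ribosome assembly factor, had 85.4 TPM and 52.2 TPM. Their log2 ratios were -0.89, -0.79, -0.77 and -0.70, the lowest of the list, whose median was -0.28. Other members of the list were even. Npm1 (nucleophosmin) had 1268 TPM and 1326 TPM, Ncl (nucleolin) 420 TPM and 389 TPM, and Fbl (fibrillarin) 286 TPM and 293 TPM.

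The E-box lay in the promoter windows of 7 of the 23 genes of this list that have one (30.4%), beside 12.2% of detected genes with a window. The list was chosen as genes known to be activated by MYC, so this share is not independent of that choice. In Imp4 and Nop2 the E-box stood before the start, and both genes were lower in co-culture. Their stretches are shown as examples chosen after their values were seen.
Imp4 (chr1:34439681-34439740, plus strand): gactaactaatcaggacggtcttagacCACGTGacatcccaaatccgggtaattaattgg
Nop2 (chr6:125131796-125131855, plus strand): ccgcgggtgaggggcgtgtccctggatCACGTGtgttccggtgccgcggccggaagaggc
Imp4, part of the U3 processome, had 51.1 TPM alone and 37.6 TPM with macrophages, and Nop2, a ribosomal RNA methyltransferase, had 98.0 TPM and 62.7 TPM. Utp20, whose window also held the motif, was higher, with a log2 ratio of 0.07. In this list the median log2 ratio was -0.32 for the genes with the motif and -0.34 for those without it. Over all 8443 detected genes with a window, the 1029 genes with the motif had a median of 0.07 and the others a median of 0.18. The letters alone therefore separated genes of the list by little.

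The other MYC-activated groups had higher medians than the ribosome genes. The 24 metabolic and mitochondrial genes had a median of 0.17, equal to that of all detected genes, which became -0.042 with the TMM factor. Of these 16 (66.7%) were higher, beside 64.5% of all detected genes, and 8 lower (7 and 17 with the TMM factor). At 1.5-fold 6 (25.0%) were higher, beside 18.6%, and 2 (8.33%) lower, beside 6.37%, so these shares were near the background. With the TMM factor 2 were 1.5-fold higher, beside 10.1% of all detected genes, and 4 lower, beside 11.3%. Shmt2, a mitochondrial serine hydroxymethyltransferase that ATF4 also activates, had 382 TPM and 168 TPM, a log2 ratio of -1.18. Ppat, the first enzyme of purine synthesis, had 338 TPM and 582 TPM, and Tfrc, the transferrin receptor gene, had 18.5 TPM and 38.0 TPM. The polyamine enzyme genes Odc1 and Srm, both textbook MYC targets, differed in opposite directions, with log2 ratios of 0.45 and -0.43. Odc1 had 1098 TPM alone and 1505 TPM with macrophages.

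MYC-activated cell cycle genes were mostly higher in co-culture, as were most detected genes. Of 13 detected genes 10 (76.9%) were higher, beside 64.5% of all detected genes, and 3 lower, with a median of 0.41. At 1.5-fold 5 (38.5%) were higher, beside 18.6% of detected genes. With the TMM factor 9 were higher and 4 lower, and the median was 0.22. At 1.5-fold 4 were then higher, beside 10.1% of all detected genes, and 1 lower, beside 11.3%. Skp2, a ubiquitin ligase subunit that degrades p27, had 8.85 TPM alone and 28.3 TPM with macrophages, a log2 ratio of 1.57. The mitotic kinase gene Plk1 had 46.4 TPM and 95.7 TPM, the centriole kinase gene Plk4 15.6 TPM and 31.4 TPM, and Cks2 58.0 TPM and 114 TPM. Cdk4 and Ccnd2, a G1 kinase and its cyclin, were among the lower ones, with log2 ratios of -0.21 and -0.51. Over the 3 activated lists together, 31 of 65 detected genes (47.7%) were higher and 34 (52.3%) lower, with a median of -0.03, beside 64.5% and 35.4% of all detected genes.

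Genes that MYC is known to repress were spread widely. Of 14 detected genes 8 (57.1%) were higher, beside 64.5% of all detected genes, and 6 lower, with a median of 0.27. Ccng2, an atypical cyclin of quiescent cells, had 7.82 TPM alone and 39.2 TPM with macrophages, a log2 ratio of 2.19. Cdkn1a, the p21 gene, had 9.26 TPM and 27.5 TPM, and Thbs1, an inhibitor of angiogenesis, had 5.83 TPM and 18.3 TPM. Gadd45a, a stress gene that ATF4 also induces, went the other way, with 65.6 TPM and 8.92 TPM, a log2 ratio of -2.75. The list held 3 genes (21.4%) that were 2-fold higher, beside 4.95% of all detected genes, and 2 (14.3%) that were 2-fold lower, beside 2.14%.

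The genes of MYC cofactors were near the background. Of 15 detected genes 10 (66.7%) were higher, beside 64.5% of all detected genes, and 5 lower, with a median of 0.22, and 1 (6.67%) was 2-fold higher, beside 4.95%. That gene was Trrap, the scaffold of the histone acetyltransferase complexes that MYC recruits, which had 19.2 TPM alone and 44.3 TPM with macrophages, a log2 ratio of 1.17. Ep400 and Hcfc1 had log2 ratios of 0.80 and 0.66, and Paf1 one of 0.48. Zbtb17, the gene of MIZ1, through which MYC represses, had 16.3 TPM and 12.9 TPM.

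The SIN3 and NCOR co-repressor genes, through which MXD proteins and MNT act, had a median of 0.35, with 12 of 15 detected genes (80%) higher, beside 64.5% of all detected genes, and 3 lower (9 and 6 with the TMM factor). None was 2-fold different, and 4 (26.7%) were 1.5-fold higher, beside 18.6% of all detected genes. That count was 0 with a pseudocount of 5, beside 9.01% of all detected genes. It was 2 with the median ratio scaling, beside 13.6%, and 1 with the TMM factor, beside 10.1%. The scaffold gene Sin3a had 11.5 TPM alone and 18.9 TPM with macrophages, while its paralog Sin3b had 192 TPM and 149 TPM. Arid4a, Sap130 and Arid4b had log2 ratios of 0.76, 0.70 and 0.59. The deacetylase genes Hdac1 and Hdac2 had log2 ratios of 0.49 and 0.35.

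MGA works inside a Polycomb complex, PRC1.6, whose other genes were mixed in direction. Of 13 detected genes 9 (69.2%) were higher and 4 lower, near the 64.5% higher of all detected genes, with a median of 0.30. Ring1, a ubiquitin ligase of Polycomb complexes, had 31.5 TPM alone and 17.5 TPM with macrophages, a log2 ratio of -0.81, while its paralog Rnf2 had one of 0.30. The DNA-binding partners E2f6 and Tfdp1 had log2 ratios of 0.78 and 0.80, and Cbx3 had one of 0.64. The direct MGA partners L3mbtl2 and Pcgf6 had 8.57 TPM and 5.25 TPM alone and 8.40 TPM and 6.25 TPM with macrophages.

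Germline genes that PRC1.6 is known to keep silent were also read, since Mga was lower. None of the 10 was detected, and 9 were listed at 0 in both libraries. The exception, Taf7l, was listed at 0 alone and at 0.05 TPM with macrophages. The E-box lay in the promoter windows of 7 of these 10 genes, the highest share of the lists examined, beside 8.09% of all genes with a window. The list was chosen as targets of a complex that holds MGA and MAX, so this share is not independent of that choice. The stretches of 3 of them show the letters at genes that were at or near 0 in both libraries.
Slc25a31 (chr3:40708751-40708810, plus strand): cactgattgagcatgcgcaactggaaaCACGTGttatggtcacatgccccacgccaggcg
Mael (chr1:166238935-166238994, minus strand): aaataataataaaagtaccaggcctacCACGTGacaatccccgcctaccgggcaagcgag
Taf7l (chrX:134476507-134476566, minus strand): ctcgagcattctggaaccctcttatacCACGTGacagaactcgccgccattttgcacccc
Slc25a31 encodes a testis form of the ADP/ATP carrier, Mael a piRNA pathway protein, and Taf7l a germ-cell form of a TFIID subunit. At Slc25a31 the motif began at -93 and at Taf7l at -49 from the RefSeq start.

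**Figure D4:**
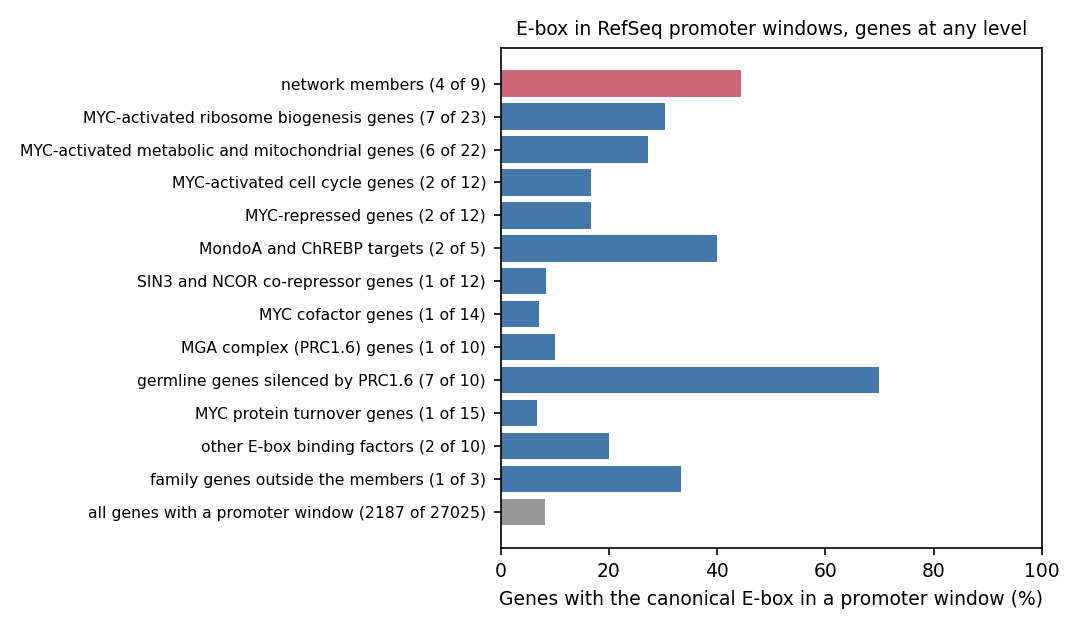
Percent of genes with the canonical E-box in a RefSeq promoter window (x axis), for the network members, each list and all genes with a window, with the counts in the labels. The members stand at 4 of 9, the germline genes at 7 of 10, and all genes at 8.09%.

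MYC protein turnover is set by ubiquitin ligases and kinases, whose genes were mixed. Of 17 detected genes 11 (64.7%) were higher, beside 64.5% of all detected genes, and 6 lower, with a median of 0.18 that became -0.030 with the TMM factor. At least 2-fold higher were 5 of them (29.4%), beside 4.95% of all detected genes, and 0 were 2-fold lower. That count was not repeated with the scalings. Fbxw7, Plk1 and Aurka passed the 2-fold line by less than the 0.12 that the median ratio scaling removed. At 1.5-fold 6 (35.3%) were higher, beside 18.6% of all detected genes, and 1 (5.88%) lower, beside 6.37%. With the TMM factor 5 were then higher, beside 10.1%, and 2 lower, beside 11.3%. Fbxw7, the ligase subunit that reads phosphorylated MYC, had 1.81 TPM alone and 4.69 TPM with macrophages, a log2 ratio of 1.02. Skp2, Plk1 and Aurka, which are also genes of cell division, and Cip2a, which shields MYC from a phosphatase, had log2 ratios of 1.57, 1.03, 1.03 and 1.12. The deubiquitinase gene Usp36 had 18.5 TPM and 10.2 TPM, a log2 ratio of -0.81. The kinase gene Gsk3b, whose product marks MYC for FBXW7, had 8.51 TPM and 6.01 TPM.

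The MLX branch has few established targets in this table. Of 6 genes taken as MondoA and ChREBP targets 4 were detected. Txnip, the glucose-uptake inhibitor used as the reporter of MondoA activity, had 0.93 TPM alone and 2.46 TPM with macrophages, a log2 ratio of 0.84. Arrdc4, its companion target, was listed at 0 in both libraries, and so was Pklr. Hk2 had a log2 ratio of 0.61, Klf10 one of -0.15 and Pfkfb3 one of -0.11.

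Other factors that bind E-box letters had a median of 0.06 over 13 detected genes, which was -0.052 with the median ratio scaling and -0.15 with the TMM factor. Bhlhe40, a repressor that also reads this element, was the only gene of the list past 2-fold (1 of 13 or 7.69%, beside 4.95% of all detected genes), with 6.88 TPM alone and 24.4 TPM with macrophages. Srebf2 and Bhlhe41 had log2 ratios of 0.71 and 0.68, and Arntl one of -0.53. Usf1 had 45.5 TPM and 36.9 TPM, and Usf2 57.1 TPM and 59.6 TPM, levels close to that of Max. Tfap4, a textbook MYC target, had 19.7 TPM and 15.7 TPM.

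**Figure D5:**
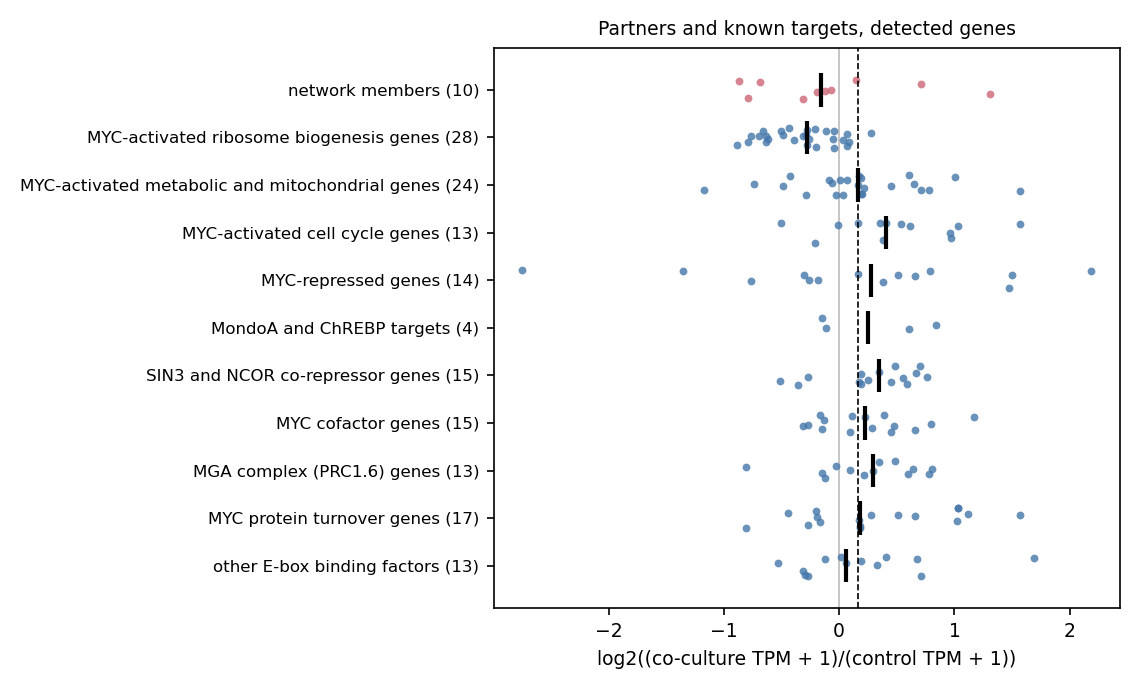
Log2 ratio (x axis) of each detected gene in the network and in 10 lists of partners and targets, with the number of detected genes in brackets, a bar at each list's median and a dashed line at the median of all detected genes, 0.17. The ribosome biogenesis genes centre at -0.28 and the cell cycle genes at 0.41.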

How the data were processed

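The authors deposited 1 table of TPM values (2 decimals, each library scaled to a total of 1000000 over 52796 rows) with 1 column per library. HISAT2 2.1.0 and RSEM 1.2.31 are listed, with the build GRCm38.p5 and no roles, per the submitters' processing notes. The sources used here do not give the annotation, strandedness or filters. RSEM divides reads that match several genes, so overlapping genes are uncertain. From these values log2 ratios with a pseudocount of 1 were computed with Python 3.11.15, pandas 2.3.3 and numpy 2.4.6. The 884 rows with MSTRG identifiers were left out. Symbols (51633 of 51912 Ensembl rows) and positions came from GENCODE M21 (GRCm38), and promoter sequences from RefSeq (GRCm38.p6), searched for CACGTG. Depth is unknown, which limits the precision that can be stated. The members and the 12 gene lists were chosen with earlier results of these data known. All members are named, with up to 4 detected genes per list with the largest absolute ratio; Imp4, Nop2 and other genes given as examples were chosen after their values were seen. A gene that this rule selects is not reported here. Alternatives were pseudocounts of 0.1 and 5, no filter, a minimum mean TPM of 10, the mean for the median, and 3 scalings (median ratio of genes at a mean TPM of at least 10; unweighted TMM with trims of 30% and 5%; both libraries rescaled after removal of mitochondrial transcripts and of the top 20 rows). The ratio and scaling steps were tested on simulated data.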

Additional observations from a re-analysis of the deposited data

How the results depend on the processing

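No paired analysis was possible because each group had 1 library. With a pseudocount of 5, 1 member was 1.5-fold higher and 1 was 1.5-fold lower, since Mxi1 (0.57), Mxd4 (-0.52) and Mga (-0.55) then missed that line. With the TMM factor 1 member was 2-fold lower (Myc, -1.09) and 1 was 1.5-fold higher, with Mxi1 at 0.50, and Mlx turned to -0.068. The other alternatives kept these counts within 1.5 times. Over 5 alternatives of pseudocount and scaling Myc lay between -1.09 and -0.85 and Mxd3 between 1.08 and 1.37. List medians turned sign with the TMM factor for the metabolic genes (-0.042), the turnover genes (-0.030) and the other E-box factors (-0.15), and with the median ratio scaling for the last (-0.052). The TMM factor shifts all genes alike, and the median of all detected genes turned with it, from 0.17 to -0.033. Leaving Mxd3 and Mxi1 out of the repressor sum, an alternative chosen after seeing the data, lowered the difference in the Myc to repressor ratio from 2.17-fold to 1.2-fold. With an unknown depth, the error of members near 2 TPM, such as Mxd1, cannot be stated.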
